A study of Rattus norvegicus with 18 samples.

Results

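Gene expression in PBMC, the blood mononuclear fraction of mostly lymphocytes and monocytes that a Ficoll gradient separates, was compared between rats fed 60% of their energy as fat and rats fed 10%. All 18 arrays of the study entered the comparison. The 6 arrays of the high-fat diet (HFD) stood on one side, and the 6 arrays of the low-fat control diet (LFD) and the 6 arrays of the high-protein diet (HPD) stood pooled, as 12 arrays, on the other. The arrays were chosen by diet alone, and a gene was described as having one direction when HFD lay above both other diets, or below both.

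All animals were adult male Wistar rats, 2 months old when the diets began, kept on their diet for 4 months and fasted for 14 h before they were killed. In LFD, fat supplied 10% of the energy, protein 20% and carbohydrate 70%, and it was eaten freely. In HFD the shares were 60%, 20% and 20%, its fat being 37% saturated, 46% monounsaturated and 17% polyunsaturated. In HPD they were 10%, 45% and 45%, with casein as the main protein. HFD and HPD were portioned daily to the energy that the LFD rats had eaten, so these were not animals with free access to fat. In both comparisons the higher share of fat came with a lower share of carbohydrate, so fat and carbohydrate cannot be told apart. Against HPD the share of protein differed as well (20% in HFD, 45% in HPD), so there protein cannot be told apart from them either. The labels of 1 array conflict: the title says HFD, replicate 7, but HPD is given as its source and in its description. It was counted as HPD replicate 7.

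After an overnight fast, fatty acids released from adipose tissue are a main fuel, and a high-fat diet keeps the supply of fatty acids high. Fatty acids bind the nuclear receptors of the PPAR family, which switch on genes of fatty acid transport and oxidation, while insulin and carbohydrate support the genes of fatty acid synthesis through Srebf1 and Mlxipl. Blood mononuclear cells carry these metabolic genes too, beside the genes of their immune tasks, and the study, by its title, asked how they reflect diets with an unbalanced share of macronutrients.

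Each array carried Cy5-labelled RNA of an individual sample and a Cy3-labelled pool of the samples, and every level below is the log2 ratio of the sample to that pool. No dye swap is described. A difference is the HFD mean minus the mean of the LFD and HPD means, on the log2 scale, with its standard error (SE, 6 HFD and 12 other arrays). Of 41012 probes, 23823 were well above background in Cy5 on at least 9 of 18 arrays, and a gene was read from its brightest probe, which gave 20314 genes. Between 53.1 and 63.4% of the probes of an array were well above background. The ratios spread more on LFD replicates 2 and 6 (median absolute deviation 0.57 and 0.60) than on the other arrays (0.26 to 0.39). The arrays lay on 5 slides, and with diet in the model 171 of 23823 probes differed between slides by limma at an adjusted p under 0.05. At an unadjusted p under 0.05, 5792 probes differed between slides, where 508 differed between HFD and the pooled diets. Slide 4 held no HFD array, so differences within a slide come from slides 1, 2, 3 and 5. Slide 1 set 2 HFD against 2 LFD arrays, and slide 2 set 1 against 3 HPD arrays. Slide 3 set 2 HFD arrays against LFD replicate 3 and HPD replicate 5, and slide 5 set 1 against LFD replicate 6. Only slide 3 thus compares HFD with both diets. The markers of the expected cells were present: all 21 measured of 24 T cell genes and 17 of the 18 measured monocyte genes cleared the background on every array, and 8 of 16 neutrophil genes passed the filter. The gradient had also left RNA of platelets and red cell precursors, with 14 of 18 and 25 of 30 markers measured.

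No gene passed the test against the pooled low-fat diets. Limma called 0 of 23823 probes (0%) at a Benjamini-Hochberg adjusted p under 0.05, and the smallest adjusted p was 0.9997. At an unadjusted p under 0.05 there were 508 probes (2.13% of those tested), 175 higher (0.735%) and 333 lower (1.4%) in HFD. In simulated data 5.04% of the probes given no difference reached this level, so the 508 are not an excess. The split depended on the scaling: 34.4% of the 508 were higher, against 52.3% of 512 with a different background correction and loess, 46.8% of 504 with the array medians set to 0 and 21.4% of 1076 with Cy5 alone. The different background correction adds an offset of 50 to both channels, which by itself makes the ratios of dim probes smaller. With 1 array left out the 508 ranged from 303 (HFD replicate 1) to 1253 (LFD replicate 2). Against LFD alone limma called 0 probes (0%), with 437 (1.83%) at an unadjusted p under 0.05 and a smallest adjusted p of 0.9998. Against HPD alone limma also called 0 (0%), with 688 (2.89%) at an unadjusted p under 0.05 and a smallest adjusted p of 0.9957. The differences were small throughout: the median absolute difference of a probe was 0.10 beside a median SE of 0.17. Of the 23823 probes, 39 differed by more than 1 on the log2 scale.

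One direction against both diets was found for 16099 probes (67.6%), 7892 of them higher (33.1%) and 8207 lower (34.4%). These counts are a description, because both differences use the same 6 HFD arrays. One direction together with an unadjusted p under 0.05 against each diet was found for 74 probes (0.311%), 25 higher (0.105%) and 49 lower (0.206%). They were unevenly spread over brightness. Of the 74, the dimmest 5956 probes held 12 higher and 32 lower ones, and the brightest 5956 held 1 higher and 3 lower. The 74 became 215 with LFD replicate 2 left out, 167 with LFD replicates 2 and 6, 140 with HFD replicate 5 and 125 with HFD replicate 4. The 6 HFD arrays lay above all 12 others for 1 probe (0.0042%) and below all 12 for 1 (0.0042%), and neither has a gene name here. The first, probe A_44_P457552, ran from 0.56 to 0.91 in HFD and from -0.64 to 0.49 elsewhere. The second, probe A_44_P750974, ran from -0.27 to -0.063 in HFD and from -0.050 to 0.50 elsewhere.

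The named genes with one direction and the smallest p included cell surface, lysosomal and signalling genes on the higher side and a potassium channel gene on the lower. The adjusted p by limma was 0.9997 for each of the 12 higher and 12 lower genes, so they are an ordering of these arrays and not a list of called genes. Probe positions are those of the array design on the rat assembly rn4, and their place in exons or introns was not analysed here.

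Tceal9, which encodes a small protein of the transcription elongation factor A-like family, had the smallest p on the higher side (probe on chromosome X, 123556525 to 123556584). Its log2 ratio was 0.02, 0.45 and 0.97 in HFD (lowest, median and highest of 6) and -0.56, -0.09 and 0.22 in the other arrays (12). All 6 HFD arrays lay above the mean of the 12, and 9 of the 12 lay below the lowest HFD array. The difference was 0.59 ± 0.15 (1.50-fold, unadjusted p 0.000855), made of 0.59 ± 0.17 against LFD and 0.59 ± 0.17 against HPD, and within slides 1, 2, 3 and 5 it was 0.47, 0.17, 0.40 and 1.21. Over all arrays Tceal9 was thus about equally far from both low-fat diets. On each of these slides the HFD mean lay above the mean of the other arrays present, of LFD, HPD or both. On slide 2, HFD replicate 3 at 0.02 lay below HPD replicate 3 at 0.18.

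Gpnmb, a transmembrane glycoprotein of macrophages and other lysosome-rich cells, differed more but unevenly (chromosome 4, 77182198 to 77182257). Its log2 ratio was 0.39, 0.65 and 1.01 in HFD and -1.47, -0.46 and 0.72 in the others. The HFD arrays were close together, and 8 of 12 other arrays lay below the lowest of them. The difference was 0.91 ± 0.26 (1.88-fold, unadjusted p 0.00292), with 0.51 ± 0.30 against LFD and 1.31 ± 0.30 against HPD. It was 0.43 with the other background correction and loess, and 0.31, 0.96, 0.39 and 1.79 within slides 1, 2, 3 and 5. In these bulk samples more cells that carry a transcript and more of it per cell cannot be told apart. The monocyte markers given below were also higher in HFD, and their part in the Gpnmb difference was not tested.

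Rassf4, a Ras association domain protein, stood at -0.09, 0.10 and 0.26 in HFD and at -0.99, -0.30 and 0.16 in the others (chromosome 4, 152988803 to 152989975). The lowest HFD array was above 10 of the 12 others. The difference was 0.50 ± 0.13 (unadjusted p 0.00135) with 0.25 ± 0.15 against LFD and 0.74 ± 0.15 against HPD, and it was 0.24 with the other background correction and loess. Celf5, an RNA-binding protein known mainly from brain, had the tightest HFD arrays of the higher side, at 0.08, 0.17 and 0.23 against -0.26, -0.05 and 0.10 (0.22 ± 0.07, unadjusted p 0.00744). It lay above 11 of the 12 other arrays with all 6 HFD arrays, but its difference was 0.11 (unadjusted p 0.40) when Cy5 was used alone.

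The other named genes of the higher side had wider arrays. Hsd17b13, a lipid droplet protein best known from liver, stood 0.37 ± 0.12 above the low-fat arrays, and Nt5e, the ectoenzyme CD73 that makes adenosine at the surface of lymphocytes, 0.41 ± 0.14. Nt5e stood at 0.23 ± 0.16 against LFD and 0.59 ± 0.16 against HPD, and at -0.08 within slide 1. Igf2, the fetal insulin-like growth factor, stood 0.60 ± 0.20 above the low-fat arrays, with 0.39 ± 0.24 against LFD and 0.82 ± 0.24 against HPD. Within slides 1 and 5 its difference was 0.00 and -0.10. Rpl6-ps11, a pseudogene whose probe may also detect copies of the ribosomal protein gene, had arrays far apart: 3 HFD arrays stood at 1.60 to 2.17 and 3 at -2.19 to -0.79, with all 12 others at -3.02 to -0.62. Lrp12, Dcx and Tmem245 were near the background, being well above it on 10, 10 and 9 of 18 arrays. For Tmem245 these were 6 HFD, 2 LFD and 1 HPD arrays, so it passed the filter through HFD, where it is higher. For Lrp12 they were 5 HFD, 2 LFD and 3 HPD arrays, and for Dcx 4, 3 and 3. Trps1, a GATA-type transcription repressor, stood at 0.31 ± 0.11, but its other probe stood at -0.11.

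Kcnj5, a subunit of the inward rectifier potassium channel that G proteins open, had the smallest p of all named genes with one direction (chromosome 8, 32080815 to 32080874). Its log2 ratio was -1.63, -0.90 and 0.00 in HFD and -0.47, 0.40 and 1.13 in the others. All 6 HFD arrays lay below the mean of the 12, and 8 of the 12 lay above the highest HFD array. The difference was -1.09 ± 0.27 (2.13-fold lower, unadjusted p 0.000694), with -0.97 ± 0.31 against LFD and -1.21 ± 0.31 against HPD. It was -1.13, -0.97 and -1.74 within slides 1, 2 and 3, and 0.39 on slide 5, where HFD replicate 5 at 0.00 met LFD replicate 6 at -0.38.

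Mfsd2a, the transporter that carries docosahexaenoic acid as lysophosphatidylcholine, also lay lower (chromosome 5, 142260809 to 142260868). Its log2 ratio was -0.96, -0.53 and -0.18 in HFD and -0.71, 0.25 and 0.55 in the others, so 9 of the 12 other arrays lay above the highest HFD array. The difference was -0.65 ± 0.18 (1.57-fold lower, unadjusted p 0.00205), with -0.60 ± 0.21 against LFD and -0.70 ± 0.21 against HPD. The gene was dim, well above background on 15 of 18 arrays, and the difference was -0.11 (unadjusted p 0.152) with the other background correction and loess. Within slides 1, 2, 3 and 5 it was -0.02, -0.80, -0.81 and -0.59.

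Several other genes of the lower side were dim as well. The non-muscle myosin heavy chain Myh10 (-0.87 ± 0.23) was well above background on 10 of 18 arrays, the ribosomal protein pseudogene Rps15-ps8 (-0.67 ± 0.18) on 12 and Frmpd1 (-0.68 ± 0.20) on 9. The olfactory receptor Or13p5 stood at -0.87 ± 0.24, the glucosyltransferase Poglut2 at -0.78 ± 0.23, the receptor tyrosine kinase Ltk at -0.65 ± 0.19 and Sh3tc2 at -0.67 ± 0.20. For Sh3tc2 this was -0.33 ± 0.23 against LFD and -1.02 ± 0.23 against HPD. Btg1b stood at -0.40 ± 0.11, C1h10orf88 at -0.37 ± 0.11 and Mybphl at -0.46 ± 0.14. C1h10orf88 lacked a value on 1 array. With the other background correction and loess, the 11 lower genes other than Kcnj5 (then -0.77) stood between -0.18 and -0.08, and 7 of the 12 no longer had an unadjusted p under 0.05. On the higher side 3 of 12 lost it, Lrp12, Dcx and Tmem245, at 0.15, 0.04 and 0.05. For dim genes the smaller values are partly built in, because this correction adds an offset of 50 to both channels.

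**Figure D1:**
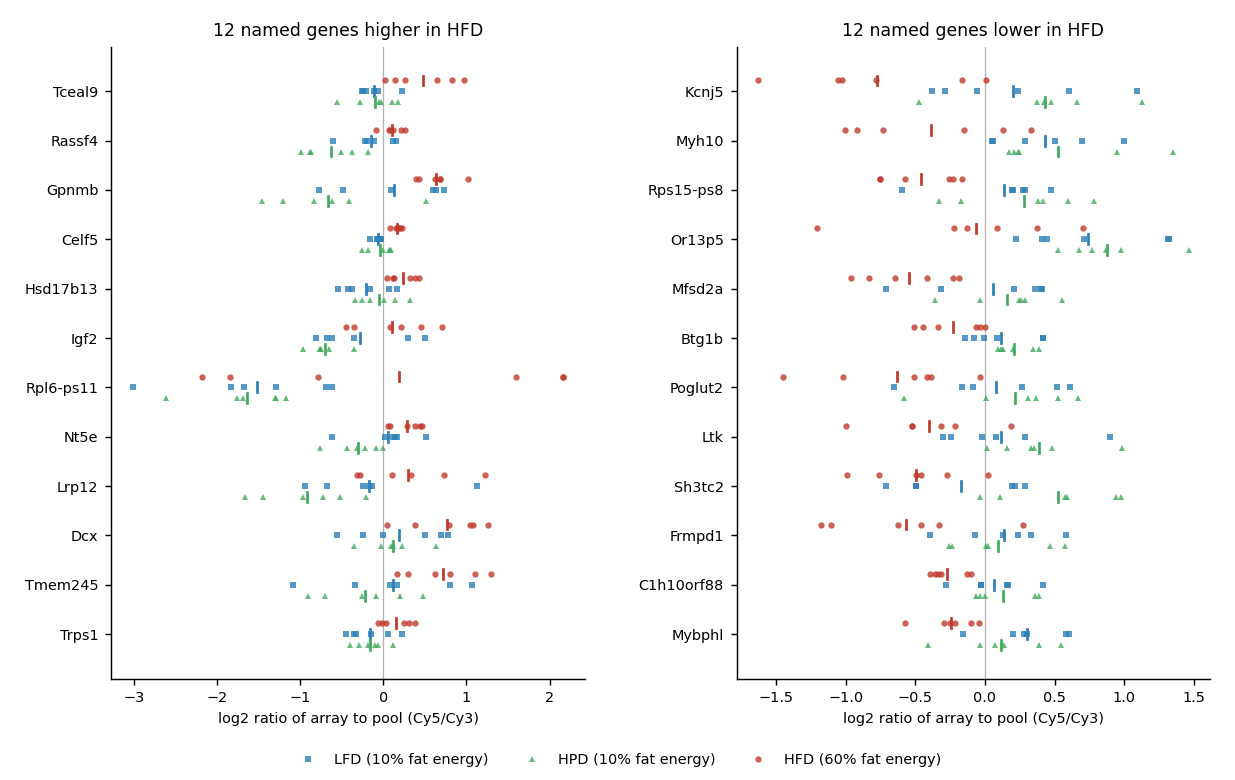
Log2 ratio of each array to the pool (x axis) for the 12 named genes higher and the 12 lower in HFD with the smallest unadjusted p (rows), with 6 HFD arrays as circles, 6 LFD arrays as squares, 6 HPD arrays as triangles (HPD replicate 7 included) and group means as vertical bars. Celf5 in HFD lies at 0.08 to 0.23, while the arrays of Rpl6-ps11 in HFD run from -2.19 to 2.17. HFD overlaps with the pooled 12 others in every row, but not with LFD alone for Celf5, nor with HPD alone for Rassf4, Nt5e, Btg1b and C1h10orf88.

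Genes that bring fatty acids into mitochondria and oxidise them were not shifted as a group. For this and every list below the base is all genes, of which 46.7% were higher and 53.3% lower in HFD. Of all genes 31.1% were higher and 36% lower than in each diet. Of 28 genes, all measured, 16 were higher and 12 lower in HFD (57.1% higher, against 46.7% of all genes). Their median difference was 0.015, against -0.012 over all genes, and its sign changed in 6 of 21 alternatives. One direction against both diets was found for 11 higher (39.3%, all genes 31.1%) and 10 lower (35.7%, all genes 36%). At an unadjusted p under 0.05 there were 2 genes, both higher, where 2.25% of all genes reached it in either direction, 0.763% higher and 1.49% lower. They were Acaa2 and Cpt1a, one at the end and one at the gate of the pathway.

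Cpt1a, carnitine palmitoyltransferase 1A, makes acylcarnitines at the outer mitochondrial membrane and is the controlled step of fatty acid entry (chromosome 1, 205912066 to 205912125). Its log2 ratio was -0.06, 0.15 and 0.35 in HFD and -0.66, -0.21 and 0.34 in the others. All 6 HFD arrays lay above the mean of the 12, and 9 of the 12 lay below the lowest HFD array, while LFD replicate 2 at 0.34 and HPD replicate 1 at 0.29 lay among the highest. The difference was 0.32 ± 0.13 (1.25-fold, 95% interval 0.04 to 0.60, unadjusted p 0.0291). It was 0.31 ± 0.15 against LFD and 0.32 ± 0.15 against HPD, and 0.09, 0.13, 0.70 and 0.20 within slides 1, 2, 3 and 5. Over 21 alternatives the value ran from 0.27 to 0.37.

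Acaa2, the mitochondrial thiolase that releases acetyl-CoA in the last step of each cycle, stood at 0.01, 0.16 and 0.35 in HFD and at -0.64, -0.24 and 0.24 in the others (chromosome 18, 71605225 to 71605284). All 6 HFD arrays were above 8 of the 12 others. The difference was 0.35 ± 0.13 (1.28-fold, 95% interval 0.07 to 0.64, unadjusted p 0.0169), with 0.39 ± 0.16 against LFD and 0.32 ± 0.16 against HPD. A second probe of the gene gave 0.42, and within slides 1, 2, 3 and 5 the difference was 0.28, 0.35, 0.23 and 0.33. With slide as a block it was 0.29 (unadjusted p 0.056). Between these genes the pathway was mixed: the medium-chain dehydrogenase Acadm stood at 0.11 and the long-chain Acadl at 0.12, while the trifunctional protein subunits Hadha and Hadhb stood at -0.15 and -0.11 and the inner-membrane partner Cpt2 at -0.17, these 5 chosen after their values were seen.

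PPAR receptors, coactivators and targets were as evenly split, with 8 of 16 measured genes higher and a median difference of 0.016. Apart from Cpt1a none reached an unadjusted p under 0.05. The corepressor Ncor1 stood at 0.25 ± 0.21, the fatty acid receptor and transporter Cd36 at 0.25 ± 0.30 and the mitochondrial carrier Ucp2 at -0.02 ± 0.10 (95% interval -0.24 to 0.20), with -0.10 ± 0.12 against LFD and 0.06 ± 0.12 against HPD. Pdk4, a PPAR target that restrains glucose oxidation, and the lipase Lpl did not pass the filter on dim probes. Of the peroxisomal oxidation genes 6 of 13 measured were higher (median -0.072), and the bifunctional protein Hsd17b4 stood at 0.23 ± 0.15 and catalase (Cat) at 0.41 ± 0.31.

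Genes of fatty acid synthesis and desaturation were more often lower. Of 20 measured, 5 were higher and 15 lower in HFD (25% higher, all genes 46.7%). Lower than in each diet were 10 (50%, all genes 36%), and higher than in each were 3 (15%, all genes 31.1%). None reached an unadjusted p under 0.05, and the median difference was small, at -0.050. It was 0.0024 when HFD replicate 2 was left out and -0.0014 with the conflicting array counted as HFD. Mlxipl, the carbohydrate-sensing factor ChREBP, stood at -0.38, 0.01 and 0.28 in HFD and at -0.24, 0.25 and 1.03 in the others. The difference was -0.33 ± 0.17 (unadjusted p 0.0757), and it was 0.06 with Cy5 alone. Fatty acid synthase (Fasn) stood at -0.11 ± 0.09 and the sterol-regulated factor Srebf1 at -0.10 ± 0.08, each with 5 of 6 HFD arrays below the mean of the 12. Acly, which makes cytosolic acetyl-CoA from citrate, went the other way at 0.13 ± 0.08, with all 6 HFD arrays above that mean and at -0.03 with Cy5 alone. The desaturase Scd stood at 0.06 ± 0.18.

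**Figure D2:**
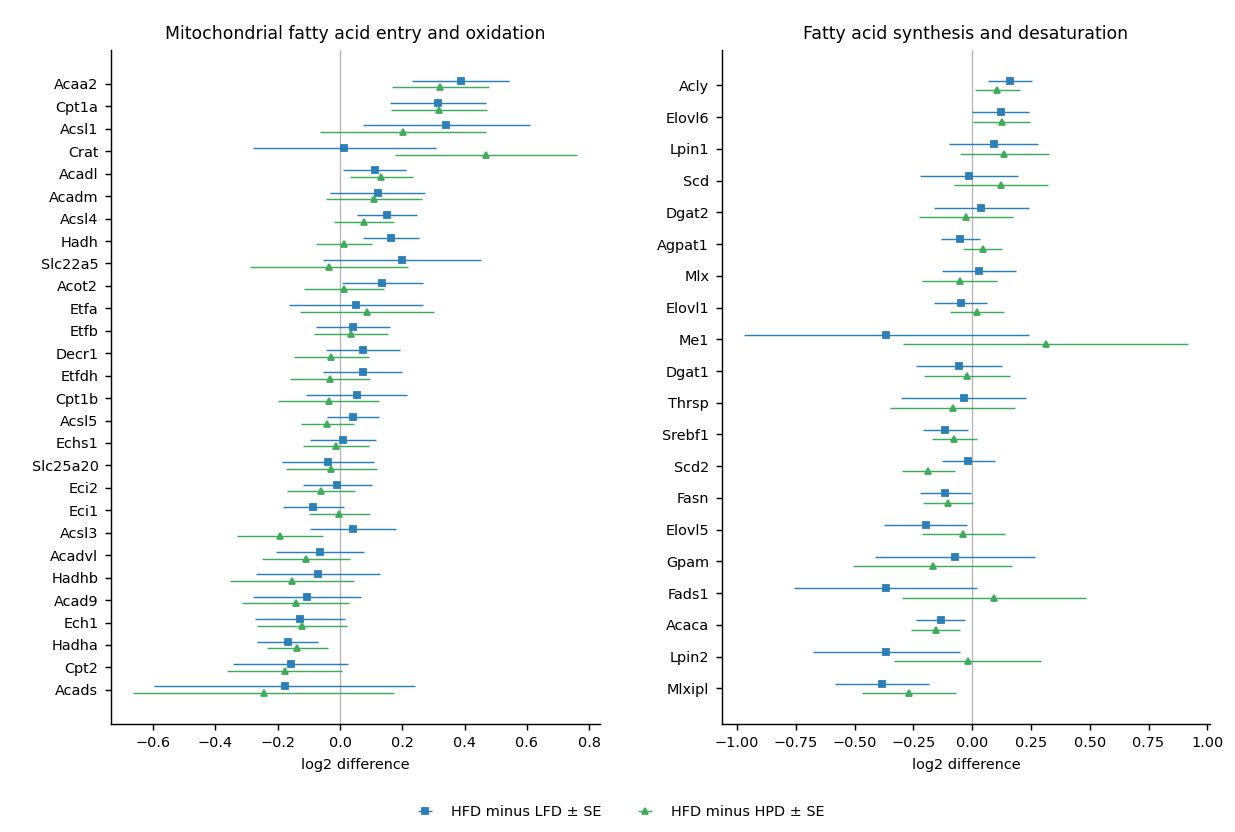
Log2 difference ± SE of HFD from LFD (squares) and from HPD (triangles), on the x axis, for 28 genes of mitochondrial fatty acid oxidation and 20 of fatty acid synthesis, ordered by their mean difference; both differences share the 6 HFD arrays. Acaa2 (0.39 and 0.32) and Cpt1a (0.31 and 0.32) have the highest mean of both differences among the oxidation genes, and Mlxipl (-0.38 and -0.27) has the lowest mean of the synthesis genes.

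Cholesterol synthesis genes were split, with 14 of 23 measured higher and a median of 0.031. Nsdhl, a sterol dehydrogenase late in the pathway, was the member with an unadjusted p under 0.05. It stood at -0.40, -0.19 and 0.05 in HFD and at -0.19, 0.23 and 0.77 in the others, a difference of -0.36 ± 0.14 (unadjusted p 0.0184) that was -0.69, -0.63, -0.14 and 0.22 within slides 1, 2, 3 and 5. The phosphomevalonate kinase Pmvk stood at -0.18 ± 0.10, below the mean of the 12 on all 6 HFD arrays. For lipid uptake, droplets and efflux, 10 of 17 measured genes were higher (median 0.031). The lysosomal cholesterol carrier Npc2 stood at 0.21 ± 0.10 and the cholesterol exporter Abca1 at 0.27 ± 0.18, with 0.04 ± 0.21 against LFD and 0.50 ± 0.21 against HPD. Hormone-sensitive lipase (Lipe) stood at -0.53 ± 0.28 and was well above background on 11 of 18 arrays.

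For the remaining metabolic groups the pooled median was -0.012 for 22 glycolysis genes, 0.003 for 22 of the tricarboxylic acid cycle, -0.026 for 27 of the respiratory chain, 0.031 for 25 antioxidant genes and 0.070 for 23 of insulin and adipokine signalling. Glycolysis stood at -0.12 against LFD (16 of 22 lower) and 0.038 against HPD. Insulin and adipokine signalling stood at -0.015 against LFD and 0.17 against HPD (17 of 23 higher). Of all genes 50% were higher in HFD than in LFD and 45.1% higher than in HPD. In the glycolysis list, Ldhb stood at 1.39 ± 0.70, but its arrays lay at separate levels, with none between -1.88 and 0.02. HFD replicate 2 stood at -1.88 and the other HFD arrays at 0.02 to 1.65. LFD replicates 2, 3, 4 and 5 and HPD replicates 7, 4 and 5 stood at -2.89 to -2.03, and the rest at 0.44 to 1.01. Enolase (Eno1) stood at -0.24 ± 0.13 and pyruvate carboxylase (Pc), which feeds the cycle, at -0.20 ± 0.10, below the mean of the 12 on all 6 HFD arrays. Chaperones of the endoplasmic reticulum were higher in 18 of 21 cases (85.7%), 14 of them than in each diet, but by little (median 0.074), with Edem1 at 0.18 ± 0.11 and Dnajc3 at 0.20 ± 0.15. That median was 0.0079 with the conflicting array counted as HFD, and -0.14, 0.21, 0.07 and -0.01 within slides 1, 2, 3 and 5. Of 31 cytosolic ribosomal protein genes 21 were lower (67.7%, all genes 53.3%), with Rpsa at -0.23 ± 0.13 and Rps3 at -0.19 ± 0.12. Their median was -0.036, and it was -0.23 with the authors' table and -0.0081 with slide as a block.

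Inflammatory and stimulus-induced genes had, with the monocyte markers described below, the largest medians on the higher side. Of 26 measured cytokine, chemokine and receptor genes 20 were higher in HFD (76.9%), 17 of them than in each diet, with a median of 0.20. Of 27 immediate early genes, the fast and transient targets of cell stimulation, 23 were higher (85.2%, median 0.21), and of 15 glucocorticoid response genes 13 (86.7%, median 0.19). Over all genes 46.7% were higher, and 31.1% were higher than in each diet. Of these 3 lists 1 gene, Cxcl2, reached an unadjusted p under 0.05 (3.85% of the inflammatory list, against 2.25% of all genes). The per-array medians overlapped widely: for immediate early genes they were -0.22 to 0.25 in HFD and -0.50 to 0.33 in the others. Leaving out LFD replicate 2 lowered the glucocorticoid median to 0.079, and without LFD replicates 2 and 6 and HPD replicate 7 the immediate early median was 0.076. With the conflicting array counted as HFD the medians were 0.086 for the inflammatory, 0.0562 for the immediate early and 0.0557 for the glucocorticoid genes.

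The 2 neutrophil-attracting chemokines Cxcl1 and Cxcl2 had the largest differences among these lists and are neighbours on chromosome 14. Their promoters are shown because both hold the motif of NF-kB, the factor that drives them in activated monocytes. The letters are the 250 bases before the annotated start, read on the gene's strand, 5′ to 3′, from RefSeq on GRCr8, at chr14:17479322-17479571 (Cxcl1, minus strand) and chr14:17467256-17467505 (Cxcl2, minus strand). Capitals mark the bases that match the kappa B consensus on either strand.
Cxcl1: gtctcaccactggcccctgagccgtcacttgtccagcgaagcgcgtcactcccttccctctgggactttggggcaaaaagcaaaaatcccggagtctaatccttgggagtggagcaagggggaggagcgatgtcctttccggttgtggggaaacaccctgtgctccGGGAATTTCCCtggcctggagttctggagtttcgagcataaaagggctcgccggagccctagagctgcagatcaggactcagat
Cxcl2: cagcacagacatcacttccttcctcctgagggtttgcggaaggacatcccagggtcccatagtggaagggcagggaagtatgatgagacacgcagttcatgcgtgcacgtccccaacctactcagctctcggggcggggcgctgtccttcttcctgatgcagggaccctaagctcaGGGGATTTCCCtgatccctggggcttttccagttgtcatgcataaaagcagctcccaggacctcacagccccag
Each promoter held 1 such stretch, made of overlapping matches, and 2117 of 33469 promoters of this length (6.33%) held any. It begins 84 bases before the start in Cxcl1 and 74 in Cxcl2 and ends at 74 and 64. A match describes the letters and is not evidence of binding in these cells.

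For Cxcl2 the log2 ratio was -0.81, 0.16 and 1.98 in HFD and -4.23, -0.73 and 0.87 in the others. All 6 HFD arrays lay above the mean of the 12, because 5 of the 12 (LFD replicates 2 and 4 and HPD replicates 7, 4 and 5) lay between -4.23 and -2.49, below every HFD array. The difference was 1.73 ± 0.82 (3.33-fold, 95% interval 0.01 to 3.46, unadjusted p 0.0484), with 1.26 ± 0.95 against LFD and 2.21 ± 0.95 against HPD. Within slides 1, 2, 3 and 5 it was 3.06, 2.08, 1.34 and -1.24, without slide 1 it was 1.13 (unadjusted p 0.233), and with the conflicting array counted as HFD 0.83 (unadjusted p 0.361).

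Cxcl1 ran in the same way, at -1.89, -0.04 and 1.77 in HFD and -6.05, -1.56 and 1.29 in the others, with the same 5 arrays lowest, between -6.05 and -3.79. It was well above background on all 6 HFD arrays, 4 LFD and 3 HPD arrays, so the lowest ratios lie near the background. The difference was 2.02 ± 1.14 (95% interval -0.38 to 4.42, unadjusted p 0.0938), and 0.65 with the other background correction and loess. Il1b, the interleukin-1 beta gene, stood at 0.42 ± 0.30 and the monocyte chemokine Ccl2 at 0.56 ± 0.49, the latter at -0.27 ± 0.56 against LFD and 1.39 ± 0.56 against HPD and therefore without one direction. Tnf did not pass the filter.

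Cd14, the monocyte receptor for lipopolysaccharide, stood at -1.05, 0.26 and 1.48 in HFD and at -2.09, -0.84 and 0.91 in the others (chromosome 18, 29374990 to 29375049). HFD replicates 1 and 6 were the highest of the 18 arrays, and 5 of the 12 others lay below the lowest HFD array. The difference was 1.15 ± 0.47 (2.21-fold, unadjusted p 0.0263), with 0.76 ± 0.55 against LFD and 1.53 ± 0.55 against HPD, and a second probe gave 1.44. Within slides 1, 2, 3 and 5 it was 1.86, 1.43, 0.93 and -0.84, without slide 1 it was 0.75 (unadjusted p 0.22), and with the conflicting array counted as HFD 0.71 (unadjusted p 0.181). The Toll-like receptor and NF-kB list that holds Cd14 was split, with 12 of 25 genes higher and a median of -0.019.

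Among the stimulus-induced genes Dusp1, a phosphatase that switches off MAP kinases, and Ier2 are shown with their promoters because both hold TGACGTCA, the full motif of the cAMP response element, a palindrome that reads the same on both strands. The 250 bases before the start are at chr10:17184603-17184852 (Dusp1, plus strand) and chr19:40399123-40399372 (Ier2, plus strand) of GRCr8 in RefSeq, with the motif in capitals.
Dusp1: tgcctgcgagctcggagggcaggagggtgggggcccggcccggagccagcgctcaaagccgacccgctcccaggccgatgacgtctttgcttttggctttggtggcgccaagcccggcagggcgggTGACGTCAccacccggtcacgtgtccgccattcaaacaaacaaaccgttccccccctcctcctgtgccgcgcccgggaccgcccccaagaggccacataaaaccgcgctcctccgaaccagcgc
Ier2: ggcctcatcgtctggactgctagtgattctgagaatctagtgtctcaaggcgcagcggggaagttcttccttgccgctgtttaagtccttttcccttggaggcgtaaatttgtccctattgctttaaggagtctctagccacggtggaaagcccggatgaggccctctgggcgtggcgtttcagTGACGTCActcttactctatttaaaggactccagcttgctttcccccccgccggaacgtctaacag
It lies 124 to 117 bases before the start in Dusp1 and 66 to 59 in Ier2, and 531 of 33469 promoters (1.59%) held it. Dusp1 stood at -0.71, 0.37 and 1.06 in HFD and at -2.01, -0.34 and 0.55 in the others, a difference of 0.68 ± 0.34 (unadjusted p 0.0608). Ier2 stood at -0.41, 0.31 and 0.49 against -0.76, -0.08 and 0.30 (0.32 ± 0.16, unadjusted p 0.059). For both, 5 of 6 HFD arrays lay above the mean of the 12, and the ranges overlap. The orphan nuclear receptor Nr4a1 stood at 0.44 ± 0.21 and Txnip, a thioredoxin inhibitor that glucose and glucocorticoids induce, at 0.35 ± 0.18.

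Interferon response genes, which restrict viruses, were more often lower. Of 32 measured, 21 were lower in HFD and 11 higher (34.4% higher, all genes 46.7%). The median was -0.081, and 17 were lower than in each diet (53.1%, all genes 36%). The per-array medians were -0.40 to -0.06 in HFD and -0.50 to 0.56 in the others. Oas1b, which senses double-stranded RNA, stood at -1.65, -0.75 and 0.14 in HFD and at -1.03, 0.18 and 0.91 in the others (-0.82 ± 0.29, unadjusted p 0.0124). The exonuclease Isg20 had tighter arrays, at -0.30, -0.22 and -0.07 against -0.28, -0.00 and 0.26, and 9 of the 12 lay above every HFD array. Its difference was -0.23 ± 0.09 (unadjusted p 0.0162), with -0.17 ± 0.10 against LFD and -0.29 ± 0.10 against HPD, and -0.05, -0.19, -0.27 and -0.33 within slides 1, 2, 3 and 5. Without LFD replicate 2 the median of the list was -0.032 and without LFD replicate 6 -0.156.

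**Figure D3:**
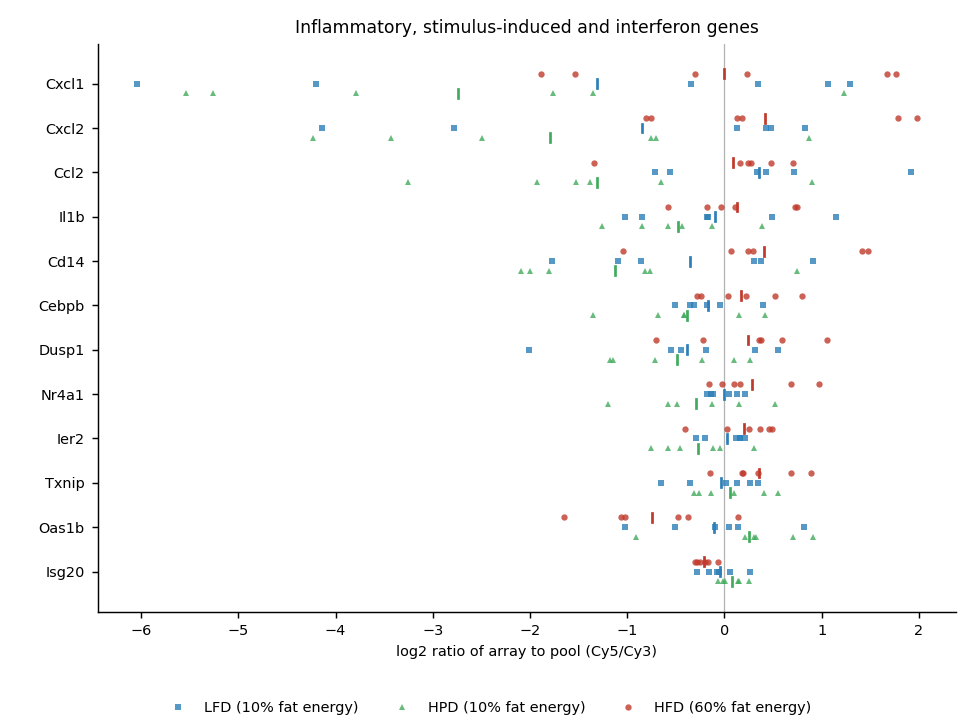
Log2 ratio of each array to the pool (x axis) for 12 inflammatory, stimulus-induced and interferon genes (rows), with circles for HFD, squares for LFD, triangles for HPD and vertical bars for group means. For Cxcl1 and Cxcl2 the means of LFD and HPD are pulled down by 2 LFD and 3 HPD arrays at -2.49 or less, while Isg20 in HFD lies between -0.30 and -0.07.

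Cell type markers differed beside these groups. All 18 measured of 20 monocyte markers were higher in HFD than in the pooled low-fat arrays, 14 of them than in each diet (77.8%, all genes 31.1%). Their median difference was 0.21, with 0.12 against LFD and 0.34 against HPD. None of the 18 was lower. Background was clearly passed on every array by 17 of them, and on 12 arrays by the other. The per-array median of the list ran from -0.32 to 0.79 in HFD and from -1.39 to 0.35 in the others. The middle of these values was the same, -0.074 in HFD and -0.074 in the 12 others, and 3 of 6 HFD arrays lay above the latter. HFD replicates 1 and 6, at 0.79 and 0.53, were the highest, as for Cd14, Cxcl1 and Cxcl2. These arrays, on different slides, were also the most alike of all pairs (correlation 0.65 over probes). The median difference was 0.081 when HFD replicate 1 was left out, and 0.11 when replicate 6 was. Cebpb, a transcription factor of monocytes, stood at 0.45 ± 0.23. The part of the monocyte share in the inflammatory and immediate early differences was not tested.

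NK and cytotoxic cell markers were higher in 15 of 17 cases (88.2%, all genes 46.7%), 13 of them than in each diet (76.5%, all genes 31.1%). Their median was 0.16, and the lectin receptor Klrb1b stood at 0.60 ± 0.34 and granzyme K (Gzmk) at 0.31 ± 0.21. Within slides 1, 2, 3 and 5 the median of the list was -0.39, 0.11, 0.25 and 0.48. Dendritic cell markers were higher in 8 of 9 cases (median 0.12), with Irf8 at 0.43 ± 0.23. T cell markers were lower in 15 of 21 cases (71.4%, all genes 53.3%), with a median of -0.083 (0.021 without slide 1). The inhibitory receptor Lag3 stood at -0.27 ± 0.14 and Cd8b at -0.28 ± 0.18. B cell markers were split (7 of 13 higher), and among 7 plasma cell markers Prdm1, the factor of antibody-secreting cells, stood at 0.49 ± 0.22 (unadjusted p 0.0337; 0.0948 with slide as a block).

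Platelet markers went opposite ways against the 2 low-fat diets. All 14 measured were lower in HFD than in LFD (median -0.29) and all 14 higher than in HPD (median 0.28), where 50% and 45.1% of all genes were higher in HFD, so 0 of 14 had one direction and the median against the pooled arrays was -0.031. Their per-array median ran from -1.96 to 0.88 in HFD and from -1.29 to 0.96 in the others, and the platelet factor Pf4 stood at 0.23 ± 0.47. Erythroid markers had a median of -0.045 against LFD and 0.23 against HPD. Of the 25, 9 were higher than in each diet (36%, all genes 31.1%) and 4 lower (16%, all genes 36%). Among them Tmcc2 stood at -2.40, -1.21 and -0.80 in HFD and at -2.15, -0.27 and 1.55 in the others. Its difference was -1.07 ± 0.45 (unadjusted p 0.0305), with -1.65 ± 0.52 against LFD and -0.48 ± 0.52 against HPD, and 8 of the 12 lay above every HFD array.

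**Figure D4:**
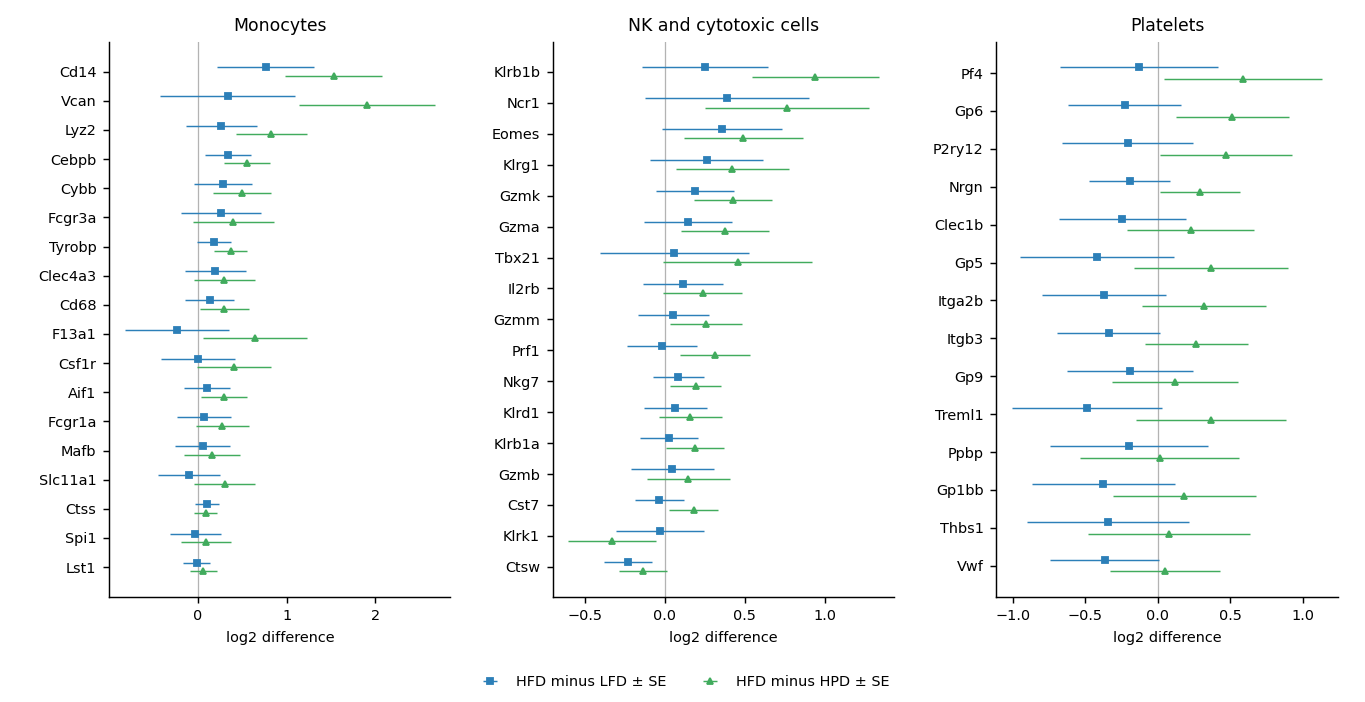
Log2 difference ± SE of HFD from LFD (squares) and from HPD (triangles), on the x axis, for the measured markers of monocytes (18), NK and cytotoxic cells (17) and platelets (14), ordered by their mean difference; both differences share the 6 HFD arrays. Platelet markers lie below 0 against LFD and above 0 against HPD in all 14 rows, and monocyte markers lie above 0 against HPD in all 18 rows and against LFD in 14.

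The remaining lists held no gene at an unadjusted p under 0.05. Neutrophil genes were higher in 5 of 8 measured, with a median of 0.20 against LFD and -0.082 against HPD. Their pooled median was 0.085, but -0.13 without slide 1 and -0.061 with slide as a block. Basophil, mast cell and eosinophil genes were lower in 4 of 6 (median -0.12). Circadian clock genes were higher in 13 of 17 cases (median 0.098, but -0.015 with Cy5 alone and -0.0057 with the authors' table), with Bhlhe40 at 0.28 ± 0.17 and Nfil3 at 0.25 ± 0.20. Adhesion and migration genes were higher in 15 of 22 (median 0.068), with the integrins Itgam at 0.58 ± 0.32 and Itga5 at -0.34 ± 0.18. Cell cycle genes were lower in 16 of 23 (69.6%, all genes 53.3%, median -0.043). The mitotic activator Cdc20 stood at -0.19 ± 0.09, below the mean of the 12 on all 6 HFD arrays, and the replication helicase Mcm7 at -0.29 ± 0.16. Genes of arachidonic acid metabolism were higher in 10 of 13 (median 0.058, -0.0031 with Cy5 alone), with Alox5ap, which serves leukotriene synthesis, at 0.29 ± 0.21.

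**Figure D5:**
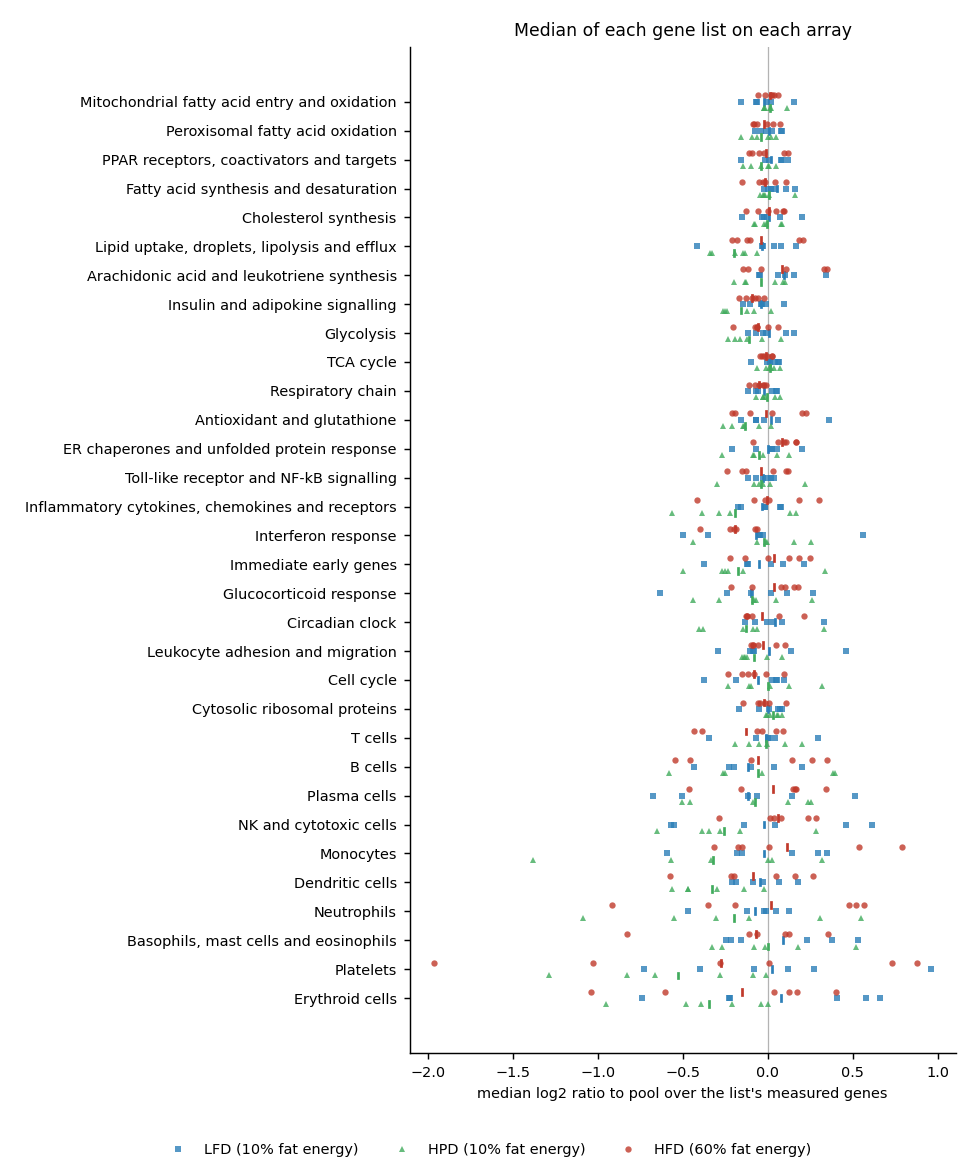
Median log2 ratio to the pool over the measured genes of each of 32 lists (rows), with circles for the 6 HFD arrays, squares for LFD, triangles for HPD and vertical bars for the mean over each group's arrays. The tricarboxylic acid cycle list lies between -0.05 and 0.02 in HFD, the lipid uptake list runs from -0.42 to 0.21 over all arrays, and the monocyte and platelet lists spread over -1.39 to 0.79 and -1.96 to 0.96, and HFD overlaps with the 12 others in every row.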

How the data were processed

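RNA of 18 PBMC samples was hybridised to 2-colour arrays against a pool, per the labels' protocols. For every array the authors deposited the text that Agilent Feature Extraction wrote (version 10.5.1.1, as the submitters' processing notes have it). The intensity columns used, per the file headers, are the processed Cy5 and Cy3 signals, from which the scanner software had taken background and dye bias, and flags mark outlier spots and signal well above background. A table of the authors' own log2 values served only as an alternative. Its processing and centring are not given in the sources used here. Its columns had a median of 8.40, and its deviations ran with those of the log2 ratios (correlation 0.887, slope 0.698).

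From these files, log2(Cy5/Cy3) of the processed signals was taken per spot, controls and outlier spots were left out, replicate spots were averaged per probe, and probes well above background in Cy5 on at least 9 of 18 arrays were kept. No scaling between arrays was applied. Limma 3.58.1 (R 4.3.3) fitted 3 diet means, with two-sided tests and Benjamini-Hochberg adjustment over 23823 probes, and was tested on simulated data. Names for 21485 of 41012 probes came from a RefSeq gene table of assembly GRCr8, and other probes kept the file's name. Named genes are the 12 with the smallest p per direction among those with one direction, the 2 with the smallest p of each of 32 lists, and 16 preset genes, of which Plin2 had no named probe, Pdk4, Lpl, Tnf and Lepr did not pass the filter, and some are not reported here. Members and lists were chosen with earlier results of these data known. The alternatives changed background, dye handling, scaling, filter, slide, replicate block and arrays. The labels speak of individual samples without naming animals, so p-values measure the spread between these samples. The number of arrays limits the precision.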

Additional observations from a re-analysis of the deposited data

Results flagged for a closer look

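Among the named genes and the list medians, 381 groups of 6 arrays were checked for an array far from the rest, and 16 held one whose gap to its nearest neighbour passed Dixon's 95% critical value. Chance alone gives about 1 in 20 groups. In HFD these were the log2 ratios of Eno1 on replicate 3 (0.283), Dnajc3 on replicate 1 (0.594), Epb41 on replicate 1 (0.438), Tmcc2 on replicate 5 (-2.4) and Ccl2 on replicate 4 (-1.34). In LFD they were Rps15-ps8 on replicate 5 (-0.592), Taldo1 on replicate 2 (0.307), Nfil3 on replicate 2 (-0.67) and Bhlhe40 on replicate 1 (0.706). LFD replicate 6 stood apart for Uqcrc1 (-1.05), Edem1 (0.579), Lag3 (-0.91) and the median of the lipid uptake, droplet and efflux list (-0.419). In HPD they were Nfil3 on replicate 2 (0.547) and, on replicate 7, whose labels conflict, the medians of the fatty acid oxidation list (0.112) and the fatty acid synthesis list (0.16).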

How the results depend on the processing

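Limma called 0 probes at an adjusted p under 0.05 against both diets, LFD or HPD in every alternative. The 508 probes at an unadjusted p under 0.05 became 1076 with Cy5 alone, 904 with scaling between arrays, 1195 with no filter on dim probes, 1661 with array quality weights, 317 with HFD replicates 1 and 6 averaged, 1158 without LFD replicates 2 and 6 and 1118 without these and HPD replicate 7. The last 2 settings were chosen after seeing the data. Without 1 array at a time they ran from 303 (without HFD replicate 1) to 1253 (without LFD replicate 2). The 74 probes with one direction became 163, 152, 197, 238, 52, 167 and 165 in the same order, 43 with the authors' table and 43 with the filter of all 18 arrays, and ran from 53 to 215 without 1 array. The 2 probes without overlap of the groups became 0 with the other background correction and loess, with the authors' table and with the conflicting array counted as HFD, 1 with the filter of all 18 arrays, 5 with no filter, 26 without slide 1, 5 without LFD replicates 2 and 6 and 5 without these and HPD replicate 7, and 2 to 4 without 1 array. With the replicate number as a block there were 619 and 95 probes. Of 16 same-numbered pairs 6 correlated over 0.1 (-0.35 to 0.25). These were not set against pairs with different numbers, so whether the number marks a pairing was not tested.

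Of 95 named genes, 86 kept their sign in each of 21 alternatives tried (fewer where a probe had no value). Of 32 list medians, 12 kept one sign in these and in each fit without 1 array, and the rest did not. The genes that changed sign were these: with Cy5 alone Mlxipl (0.061), Acly (-0.031) and Scd (-0.040), with the conflicting array counted as HFD Ptger4 (-0.0069) and Ccl2 (-0.11), and with slide as a fixed block Ndufv1 (0.066). Without slide 1 they were Ucp2 (0.013) and Scd (-0.041), with the other background correction Ucp2 (0.0027), and with HFD replicates 1 and 6 averaged Pf4 (-0.019). Vwf reached 0.095 with array quality weights and 0.040 without LFD replicates 2 and 6 and HPD replicate 7. Without 1 array, Pf4 ran from -0.049 to 0.64, Vwf from -0.34 to 0.12, Ucp2 from -0.073 to 0.020 and Scd from -0.016 to 0.14. The cause was not tested. Dim probes are limited by their signal over background.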
